A study of Mus musculus with 19 samples.

Results

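Aminoacyl-tRNA synthetases are the enzymes that join each amino acid to its tRNA. The 36 synthetase genes described here were taken by symbol from the gene tables of RNA-seq and ribosome profiling in mouse hippocampal slices. All 36 were found among the 20436 genes of both tables. By symbol and known location, 20 encode cytosolic enzymes or subunits, including Kars and Gars, which also supply mitochondria, and Qars. The other 16, whose symbols end in 2, encode mitochondrial enzymes. The slices came from male wild-type mice of postnatal days 28 to 42. They received 100 µM DHPG, an agonist of group I metabotropic glutamate receptors, or the vehicle ACSF for 5 min. Every slice, basal or treated, was then exposed to 100 µg/ml cycloheximide, which holds ribosomes on the mRNA, and was frozen. Area CA3 was kept in these slices and the slices of several animals were pooled in each replicate, so that no value belongs to 1 animal. Of the 19 libraries, basal slices gave 4 RNA libraries and 5 libraries of ribosome-protected fragments (RPFs), and DHPG slices gave 5 of each.

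The cell spends ATP to activate an amino acid, and a synthetase then moves it onto the matching tRNA, which elongation factor 1A carries to the ribosome. Synthetases fall into class I and class II by the fold of the catalytic domain. Cytosolic and mitochondrial protein synthesis use separate sets of tRNAs, and for most amino acids a second nuclear gene encodes an enzyme that is imported into mitochondria. Several cytosolic enzymes are held together, with the scaffold proteins Aimp1, Aimp2 and Eef1e1, in the multisynthetase complex. When uncharged tRNA accumulates, the kinase GCN2 leads to translation of ATF4, a transcription factor for which several cytosolic synthetase genes are known targets. In neurons these enzymes are known from disease, since mutations in GARS cause an inherited neuropathy.

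ATF4 binds the C/EBP-ATF response element, whose core TGATGNAA was sought on both strands of RefSeq promoters (GRCm38.p6, 250 bases before to 50 after the start site). Promoter entries were found for 13 cytosolic members and for 14 mitochondrial members, the latter with 15 start sites. The core was present in 5 of the 13 cytosolic promoters (38.46%) and in 0 of the 15 mitochondrial ones, against 3.97% of all 32851 promoters. Aars held the core at positions -112 and 9 relative to the start site. Stretches from the other 4 of these cytosolic promoters are shown because the members differed by class in this feature. Each is read along the strand of the gene with the core, or its reverse TTNCATCA, in capitals.
Yars, chr4:129189895-129189924, plus strand: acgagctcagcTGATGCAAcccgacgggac
Gars, chr6:55037960-55037989, plus strand: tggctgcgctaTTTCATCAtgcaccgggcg
Iars, chr13:49682126-49682155, plus strand: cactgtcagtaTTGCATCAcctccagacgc
Tars, chr15:11399655-11399684, minus strand: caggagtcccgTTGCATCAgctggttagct

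NRF1, a transcription factor of many nuclear genes for mitochondrial proteins, binds a palindromic site whose core was sought as GCGCANGCG. It was present in 3 of the 13 cytosolic promoters (23.08%), those of Farsb, Kars and Tars, in 4 of the 15 mitochondrial promoters (26.67%) and in 6.25% of all promoters. The mitochondrial stretches with 1 match are shown with the core, or its reverse CGCNTGCGC, in capitals, for comparison with the element above. Vars2 held the core at 2 places. A match describes these letters only and was not read as a bound site, and neither core contains the other.
Mars2, chr1:55237169-55237198, plus strand: ccgtccagctGCGCACGCGccctttcccgt
Iars2, chr1:185329373-185329402, minus strand: cgccccggagCGCGTGCGCagttcctcgcc
Wars2, chr3:99141016-99141045, plus strand: cagaggacagGCGCATGCGtagtaagcaca

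Total expected counts per library lay between 4870813 and 7793244 in RNA and between 5692064 and 22092434 in RPF, and all 36 members passed the filter on low counts in both assays. The member with the fewest counts in any library was Wars2 in RNA, with 26, and Pars2 in RPF, with 17. All 10 hippocampal neuron markers checked were above 1 CPM (counts per 1000000 counts of the library) in every group. The summed level of 6 oligodendrocyte markers lay between 2462 and 6034 CPM in the RNA libraries. In bulk slices, fewer cells of a type and less RNA per cell cannot be told apart.

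In basal slices, the cytosolic synthetases stood well above the mitochondrial ones in both assays. Levels between genes are given as CPM per kb, of the longest coding transcript for RNA and of its coding sequence less 30 bases at each end for RPF. The median cytosolic member was at 33.6 CPM per kb of RNA and the median mitochondrial member at 6.92, while the median of all genes tested was 9.55. The difference of the class medians was 2.28 ± 0.14 on the log2 scale (SD, n = 4 libraries), or 4.86-fold, and lay between 2.09 and 2.43 in the single libraries. In RPF the class medians were 40.0 and 7.76 CPM per kb, beside 17.4 for all genes. That difference was 2.36 ± 0.12 (log2, SD, n = 5), or 5.15-fold. The mean level of 19 of 20 cytosolic members exceeded the median gene in RNA and that of 18 of 20 in RPF. The corresponding counts for mitochondrial members were 6 of 16 in RNA and 0 of 16 in RPF. The members of a class are not replicates, so these differences are descriptions without a test.

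**Figure D1:**
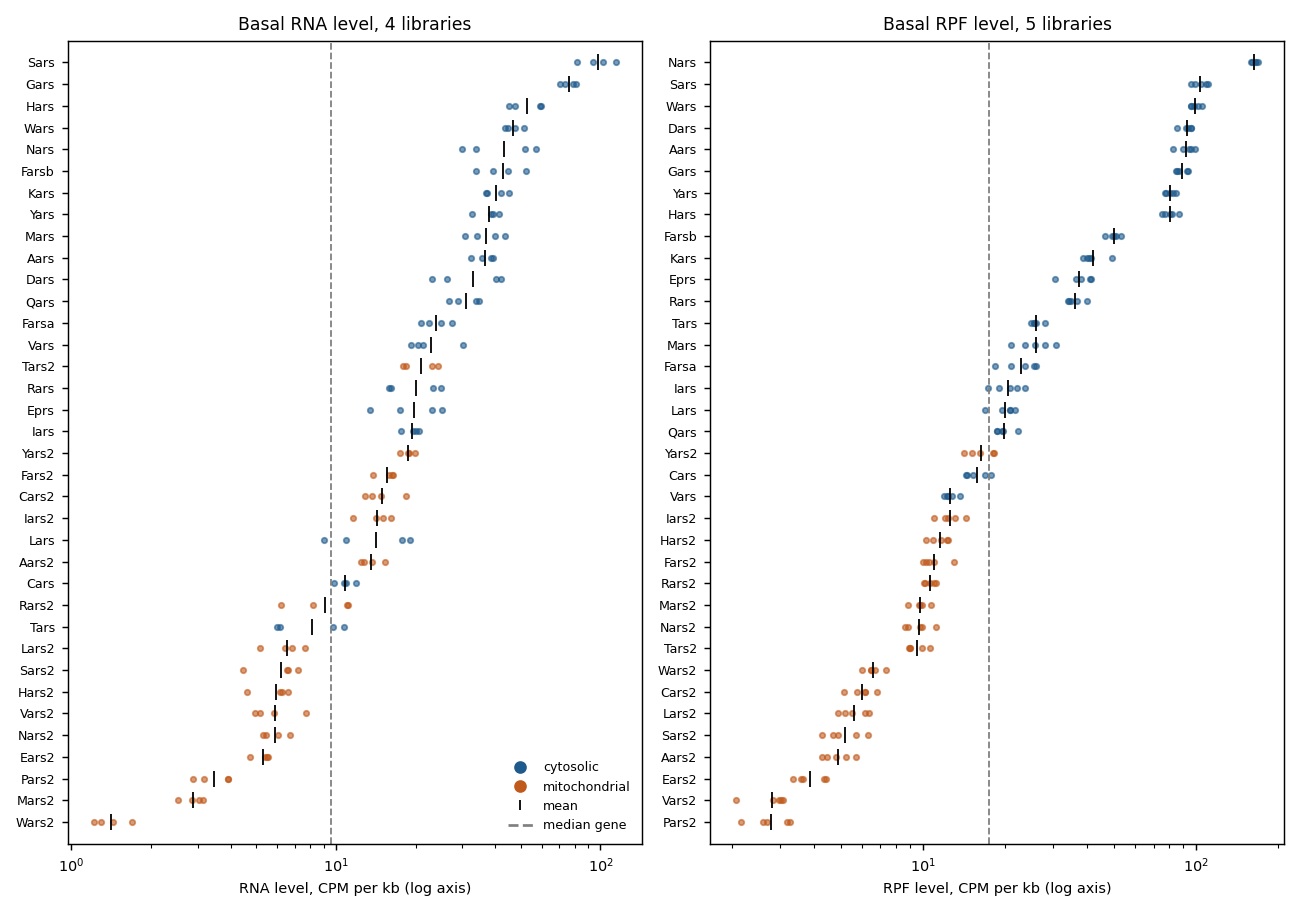
Basal levels of the 36 synthetases in RNA (left) and RPF (right), in CPM per kb on log axes, with 1 point per library, a tick at the mean and a dashed line at the median of all genes tested. The cytosolic members take the upper ranks in both panels, led by Sars in RNA and Nars in RPF, and all 16 mitochondrial means lie left of the median gene in RPF.

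Sars, the cytosolic seryl-tRNA synthetase (chr3:108424865-108445209, minus strand, mm10), had the highest RNA level of the cytosolic class. Its 4 basal libraries gave 93.5, 81.6, 102 and 115 CPM per kb, a mean of 97.9 ± 13.9. Gars, which charges glycine, came next with 75.8 ± 4.79, and the values of these 2 neighbours did not overlap, Gars reaching 81.0. Tars, the cytosolic threonyl-tRNA synthetase (chr15:11382301-11399665, minus strand), had the lowest RNA level of its class at 8.15 ± 2.41. Its libraries gave 9.71, 6.17, 6.01 and 10.7 CPM per kb, so replicates 2 and 3 were low and replicates 1 and 4 were high. In the mitochondrial class the order ran from Tars2 (chr3:95739976-95760206), with 20.9 ± 3.18 CPM per kb, to Wars2 (chr3:99141068-99239186), the tryptophan enzyme of mitochondria, with 1.41 ± 0.21. Yars2, for tyrosine, was second at 18.8 ± 0.97, and its range of 17.5 to 19.9 overlapped the 17.9 to 24.2 of Tars2. The tops of both orders rest on transcript length. In CPM with no length scaling, Aars (210 ± 17.5) stood above Sars (183 ± 25.9) and Gars (180 ± 11.4). Iars2 (78.0 ± 10.4) then led the mitochondrial class, with Tars2 at 50.2 ± 7.64. Iars2 shares 2034 exonic bases with Rab3gap2 on the opposite strand, and the part of this overlap in its level was not tested. Tars and Wars2 stayed lowest in their classes.

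In RPF the order was led by Nars, the cytosolic asparaginyl-tRNA synthetase. It gave 169, 159, 160, 166 and 165 CPM per kb in the 5 basal libraries, a mean of 164 ± 4.49. Nars overlapped with no other member, the next being Sars at 104 ± 6.31. Below Sars, the means of Wars, Dars, Aars, Gars, Yars and Hars ran from 99.5 to 80.1 CPM per kb. Neighbours in that order overlapped in range, except that the lowest Gars library (85.0) lay just above the highest Yars library (84.8). Vars, the cytosolic valine enzyme (chr17:35000987-35016322, plus strand), had the lowest cytosolic RPF level, 12.6 ± 0.66, with libraries from 12.0 to 13.7. Yars2 was the highest mitochondrial member, at 16.3 ± 1.80. Pars2, the mitochondrial prolyl-tRNA synthetase (chr4:106651069-106655282), and Vars2 shared the lowest place, at 2.78 ± 0.45 and 2.80 ± 0.42, which differed by less than their spread. Pars2 gave 3.27, 2.60, 2.16, 2.69 and 3.19 CPM per kb in the 5 libraries.

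By RNA and RPF per kb, the genes of the multisynthetase complex enzymes were not those with the highest levels. The 8 synthetases of the complex (Dars, Eprs, Iars, Kars, Lars, Mars, Qars and Rars) had a median of 24.1 CPM per kb in RNA and 30.1 in RPF. The 12 cytosolic members outside it had medians of 38.0 and 80.3. Summed over members, cytosolic exceeded mitochondrial levels 4.75 ± 0.45-fold in basal RNA and 8.80 ± 0.45-fold in basal RPF. Under DHPG these ratios were 4.66 ± 0.32 and 8.72 ± 0.28 (SD, n = 5 each), a difference smaller than the spread in either assay.

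Farsa and Farsb encode the α and β subunits of the cytosolic phenylalanyl-tRNA synthetase, which assembles from equal numbers of both. Their levels were not equal in these libraries. Farsa (chr8:84856989-84869257) had 24.0 ± 2.84 CPM per kb in RNA and Farsb (chr1:78417975-78488897) 42.6 ± 7.86. The ratio of Farsa to Farsb was 0.469, 0.570, 0.809 and 0.477 in the 4 basal RNA libraries. In RPF it was 0.487, 0.395, 0.421, 0.501 and 0.480, a mean of 0.457 ± 0.046, so Farsb was above Farsa in each of the 9 basal libraries. Farsb shares 248 exonic bases with Sgpp2 on the opposite strand, and whether reads were assigned by strand is not given in the sources used here.

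For 17 pairs of a cytosolic and a mitochondrial enzyme or subunit of the same amino acid, the levels could be set side by side within each library. Eprs, which charges both glutamate and proline, entered with Ears2 and with Pars2, and Fars2 entered with both cytosolic subunits. In RPF the cytosolic partner was higher in every basal library for 17 of 17 pairs, with ratios from 1.66 for Iars over Iars2 to 20.3 for Sars over Sars2 and a median of 4.60. In RNA this was so for 15 pairs, with a median ratio of 2.75. With these lengths the exceptions were threonine and cysteine. The threonine exception did not hold with merged exons, and the cysteine exception held with neither merged exons nor plain CPM. Tars over Tars2 was 0.526, 0.268, 0.248 and 0.597 in the basal RNA libraries but 2.75 ± 0.15 in RPF (n = 5). With merged exons the RNA ratio of this pair lay between 0.486 and 1.17, on both sides of 1. With no length scaling it was below 1 in every basal RNA library, between 0.414 and 0.997. Cars over Cars2 was 0.742 ± 0.14 in RNA and 2.65 ± 0.24 in RPF, but its RNA ratio was 1.38 ± 0.26 with merged exons and 1.26 ± 0.24 with no length scaling. Under those lengths the cytosolic partner was higher in every basal RNA library for 14 and 13 of the 17 pairs, and in RPF for 17 under both. With no length scaling, Farsa over Fars2 was also below 1 in every basal RNA library (0.765 to 0.905). Fars2 shares 501 exonic bases with Nrn1 on the opposite strand. The alanine pair also differed between the assays, with Aars over Aars2 at 2.69 ± 0.16 in RNA and 18.9 ± 1.46 in RPF. Methionine, tryptophan and histidine ran the other way in their means with these lengths. Mars exceeded Mars2 12.9 ± 2.11-fold in RNA and 2.64 ± 0.29-fold in RPF, and the RNA value of Mars2 rests on an annotated transcript of 11294 bases with a 3′ UTR of 9473. Without length scaling the ratios of Mars over Mars2 were 3.37 ± 0.55 in RNA and 4.15 ± 0.46 in RPF, so the order of the assays turned. Wars over Wars2 was 33.8 ± 5.43 in RNA and 15.2 ± 0.81 in RPF, and 14.0 ± 2.25 and 20.6 ± 1.10 without length scaling. Hars over Hars2 was 9.01 ± 1.25 in RNA and 6.98 ± 0.64 in RPF, and 5.37 ± 0.75 and 7.04 ± 0.64 without length scaling.

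**Figure D2:**
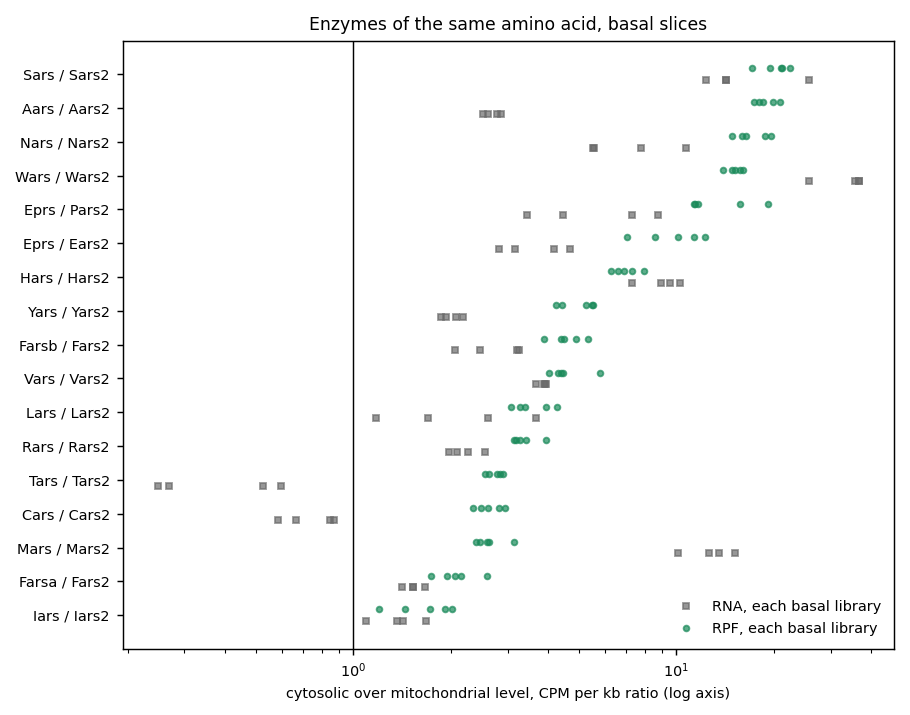
Ratio of the cytosolic to the mitochondrial enzyme of the same amino acid in CPM per kb, on a log axis, for each basal RNA library (squares) and each basal RPF library (circles). All RPF points lie right of 1, whereas the RNA points of Tars over Tars2 and of Cars over Cars2 lie left of it, and Wars over Wars2 and Mars over Mars2 are higher in RNA than in RPF. These RNA positions depend on transcript length, without which Cars exceeds Cars2 on average and both Wars and Mars ratios are lower in RNA than in RPF. Tars over Tars2 stays left of 1 in RNA without length scaling.

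Translational efficiency (TE) is the RPF level over the RNA level of a gene. It was taken per kb within replicates 1 to 4, which have both basal libraries, and is given as a log2 value relative to the median of 12639 genes. The median TE of the mitochondrial class was -1.14 ± 0.15 (SD, n = 4 replicates) and that of the cytosolic class -0.39 ± 0.21. The sign of the cytosolic value rested on the length used, since it was -0.055 ± 0.13 with merged exons and 0.29 ± 0.12 with no length scaling, whereas the mitochondrial class stayed below the median gene at -0.72 ± 0.049 and -0.75 ± 0.14. With the longest coding transcript, the difference of the classes was 0.76 ± 0.36 and lay between 0.31 and 1.07 in the 4 replicates. Tested against the typical gene in basal slices (edgeR quasi-likelihood test with length offsets, adjusted p under 0.05), 6 of 36 members were above it and 21 were below. This test separated most genes from the typical one, with 40.3% of 12092 genes called above and 39% called below. The members' shares were 16.7% above and 58.3% below. By class, 4 cytosolic members were above and 9 below, and 2 mitochondrial members were above and 12 below. With no length offsets the cytosolic balance turned, to 11 above and 3 below (Mars, Qars and Vars), while mitochondrial members stood at 0 above and 11 below. All genes then had 35.1% above and 35.5% below.

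Of the members called above, Nars, Tars, Dars and Aars are cytosolic and Wars2 and Mars2 are mitochondrial. The TE of Nars was 0.74, 1.40, 1.53 and 0.84 in replicates 1 to 4, a mean of 1.13 ± 0.40 (edgeR adjusted p = 0.000226). Dars, for aspartate (chr1:128363707-128417368, minus strand), gave 0.36, 0.98, 1.17 and 0.25 (adjusted p = 0.00654). Tars lay between 0.38 in replicate 4 and 1.23 in replicate 2 (adjusted p = 0.00139). In all 3, replicates 2 and 3 were the high ones, and these are the replicates in which their RNA was low. The same replicates stood apart for Eprs, whose TE was -0.11, 0.39, 0.74 and -0.57, with a sign that depended on the replicate. Aars varied less, at 0.48 ± 0.10 (adjusted p = 0.0019). Its exons share 1326 bases with those of Exosc6 on the same strand.

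Wars2 had the highest TE of all members, 1.49, 1.42, 1.26 and 1.24 in the 4 replicates (mean 1.35 ± 0.12, edgeR adjusted p = 3.89e-05). Mars2 (chr1:55237177-55248470, plus strand) stood at 0.92 ± 0.20 (adjusted p = 0.000212). Both values turn on transcript length, because RNA was counted on the whole transcript. The annotated 3′ UTR is 3299 bases in Wars2 and 9473 bases in Mars2, beside class medians of 825.5 for mitochondrial and 254 for cytosolic members. With no length scaling, Wars2 was at 0.26 and Mars2 at -0.79, a change of sign.

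At the low end were mitochondrial enzymes and Vars. Aars2, the mitochondrial alanine enzyme (chr17:45506841-45520843), had a TE of -2.09, -2.30, -2.71 and -2.12 (mean -2.30 ± 0.28, edgeR adjusted p = 1.49e-06). This placed it at the 3.66th percentile of the genes ranked. Cars2 (-2.09 ± 0.32), Tars2 (-1.99 ± 0.32) and Vars2 (-1.94 ± 0.39) came next, and these neighbours did not differ beyond their spread. This order rests on the length used. With merged exons Aars2 was at -2.37 and Vars2 at -2.29, but Tars2 at -1.05 and Cars2 at -0.96. With no length scaling Fars2 was lowest at -1.65, followed by Aars2 at -1.50. Fars2 shares 501 exonic bases with Nrn1 and 115 with Lyrm4 on the opposite strand, and their part in its RNA level was not tested. Vars was the lowest cytosolic member at -1.55, -1.66, -2.12 and -1.49 (mean -1.70 ± 0.28, adjusted p = 5.16e-06), followed by Qars at -1.49 ± 0.25 and Mars at -1.33 ± 0.14. For valine and alanine the pairs were thus unlike each other, since Vars and Vars2 were both low, whereas Aars was above the median gene and Aars2 far below it. Farsa was at -0.93 ± 0.33 and Farsb at -0.59 ± 0.23, both called below. Neither call held without length offsets, where Farsa was at -0.24 and Farsb at 0.17 in the fit.

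In each of the 4 basal replicates, the TE of 24 members was below the median gene and that of 8 members above it. Under DHPG, whose 5 replicates were ranked in the same way, the mean TE kept its sign in 36 of 36 members. Both sets used the same lengths and same-numbered replicates, so this count was not read as a result. The largest shift of a mean was 0.37 (Wars2). The share over all genes is not given for the counts of sign in this paragraph. Over the 3 treatments of length (longest coding transcript, merged exons and no scaling), 25 members kept their sign, with 16 always below and 9 always above. The 9 were Aars, Dars, Eprs, Nars, Rars, Tars, Wars, Yars and Wars2. Of the mitochondrial members, 11 of 16 were below under all 3.

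**Figure D3:**
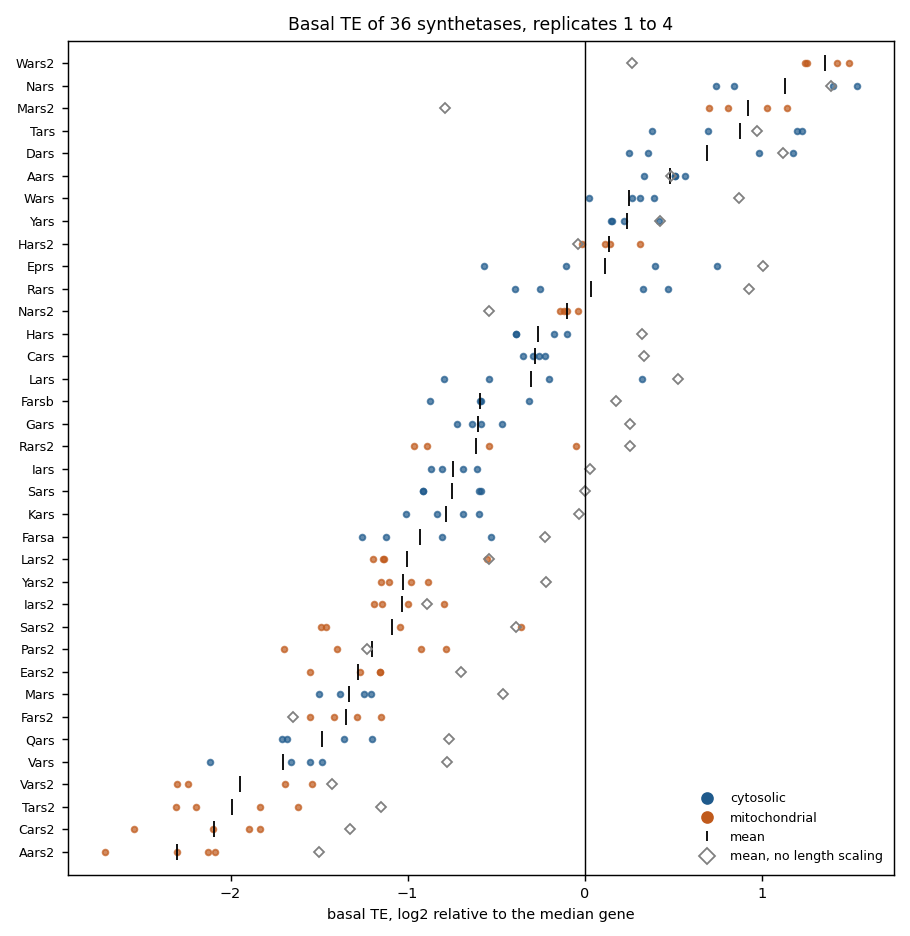
Basal TE of each member on the log2 scale relative to the median gene, with 1 point for each of replicates 1 to 4, a tick at the mean and an open diamond at the mean without length scaling. Mitochondrial members fill most of the low ranks down to Aars2, and the diamonds of Wars2 and Mars2 lie far left of their ticks.

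DHPG was compared with basal slices to ask which synthetase mRNAs changed in level or in ribosome occupancy after 5 min of receptor activation. In RNA, 0 of 36 members passed an adjusted p of 0.01 (edgeR quasi-likelihood test with the replicate number as a block), as did 0.00773% of 12935 genes, that is 1 gene. At an unadjusted p under 0.05 there were 4 of 36 members (Dars, Lars, Wars and Hars2), beside 8.02% of all genes. In RPF, 0 of 36 members passed an adjusted p of 0.05, beside 0.22% of 13208 genes, and 2 members (Lars and Mars) had an unadjusted p under 0.05, beside 10.8% of genes. The change in TE, the interaction of assay and treatment, passed in 0 members and in 0% of 12691 genes. Dars alone had an unadjusted p under 0.05 for TE, beside 6.69% of genes. DESeq2 with the same block called 0 members in RNA. ComBat followed by DESeq2 called 0 in both assays, but gave an adjusted p to only 22 members in RNA and 16 in RPF. The lowest of these in RNA was 0.0486 (Dars), above the 0.01 used there. The share of all genes called by these DESeq2 fits is not given here.

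Most cytosolic members had slightly lower RNA under DHPG, with small values. The log2 fold change was below 0 in 18 of 20 cytosolic and 12 of 16 mitochondrial members, while 52.1% of all genes were above 0. Without replicate 2 the mitochondrial count was 8 of 16 and the mitochondrial median -0.0087. The median was -0.067 for cytosolic members, -0.035 for mitochondrial members and 0.0068 for all genes, and the median standard error of a cytosolic member was 0.076. By pair of replicates, the cytosolic median was -0.036, -0.011, -0.13 and -0.097. All 12 cytosolic members outside the multisynthetase complex had a value below 0, and 6 of the 8 in it, the others being Iars and Mars. In RPF, 17 of 20 cytosolic and 7 of 16 mitochondrial members were below 0, with medians of -0.034 and 0.0085 beside 0.0031 for all genes. The cytosolic median was -0.044, -0.082, -0.017, 0.036 and -0.027 in the 5 pairs, so pair 4 differed in sign. The TE change was above 0 in 16 of 20 cytosolic members (median 0.034) and 11 of 16 mitochondrial members (median 0.048), beside -0.0017 for all genes. The RNA and TE values share the RNA libraries. These counts carry no test.

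**Figure D4:**
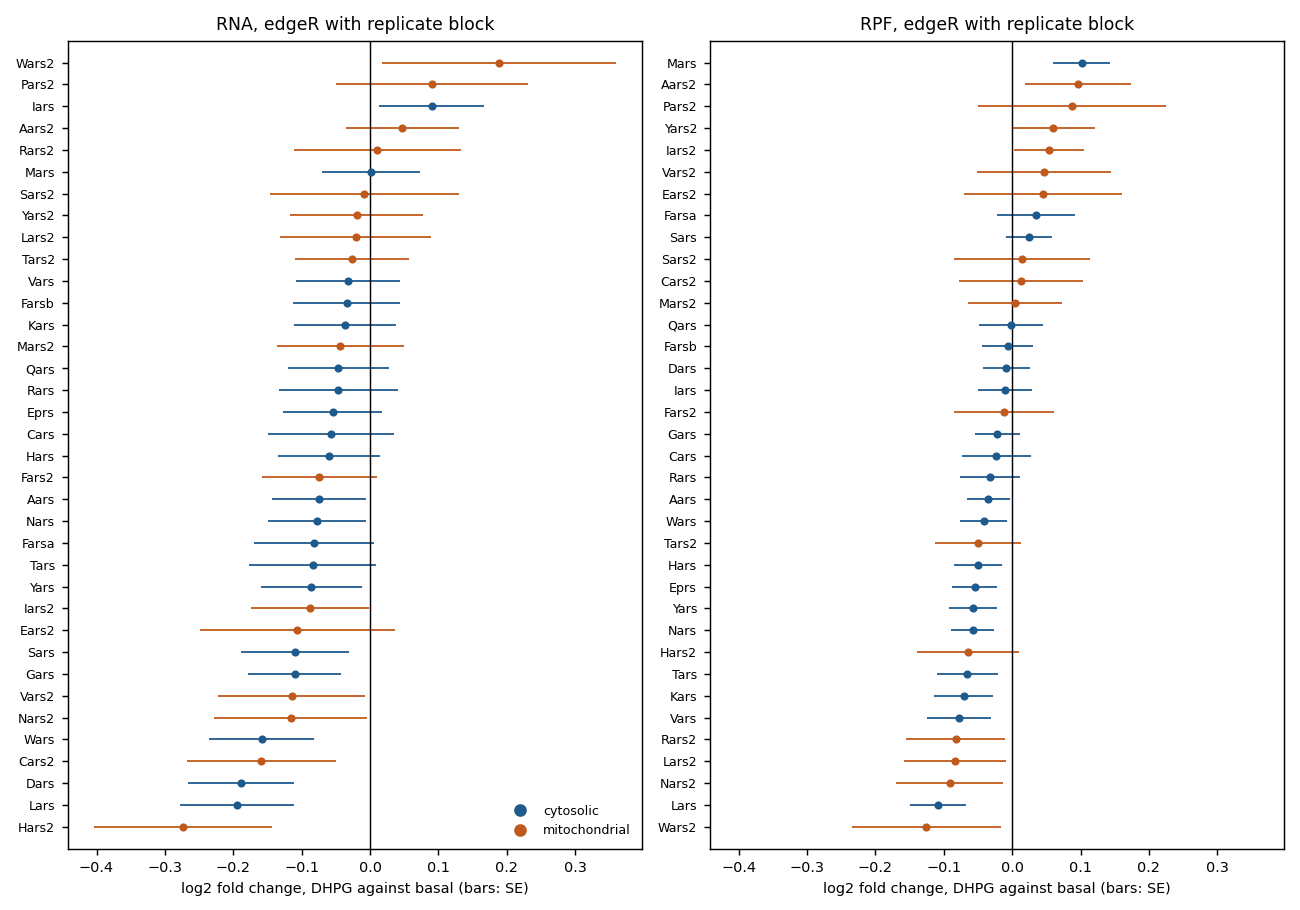
Log2 fold change of each member, DHPG against basal, in RNA (left) and RPF (right), with bars of 1 standard error from the edgeR fit with the replicate block. In RNA 30 of 36 points lie left of 0 and in RPF 24 of 36, with values between -0.27 and 0.19 in RNA and between -0.13 and 0.10 in RPF.

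The cytosolic members with the smallest p in RNA were Dars and Lars. Dars had 91.3, 57.1, 50.2 and 87.8 CPM in basal replicates 1 to 4 and 83.9, 46.2, 43.8, 78.3 and 78.5 CPM in DHPG replicates 1 to 5. The DHPG library was the lower one in 4 of 4 pairs, but replicates 2 and 3 were low under either treatment, so the groups overlapped. The log2 fold change was -0.19 ± 0.078 (SE, adjusted p = 0.573). Ribosome occupancy of Dars showed no such difference, with an RPF log2 fold change of -0.0086 ± 0.034, and the TE change was 0.18 ± 0.075 (adjusted p = 0.694). Lars, the leucine enzyme of the complex and a known leucine sensor for mTORC1, had 70.6, 43.5, 35.8 and 75.7 CPM in basal RNA and 61.2, 38.5, 35.5, 60.3 and 70.1 CPM under DHPG. It too was lower in 4 of 4 pairs, with a log2 fold change of -0.19 ± 0.083 (adjusted p = 0.578).

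Lars was also the cytosolic member with the smallest p in RPF. It had 75.6, 59.0, 72.4, 67.9 and 72.6 CPM in basal slices and 71.9, 49.8, 67.9, 66.1 and 68.5 CPM under DHPG. The DHPG library was lower in 5 of 5 pairs, yet the groups overlapped and the log2 fold change was -0.11 ± 0.041 (adjusted p = 0.317). Mars, the methionine enzyme of the complex (chr10:127296221-127311786, minus strand), had the opposite sign. Its RPF levels were 68.8, 81.9, 75.1, 56.4 and 63.4 CPM in basal slices and 71.6, 80.7, 81.6, 65.8 and 70.9 CPM under DHPG, higher in 4 of 5 pairs. The log2 fold change was 0.10 ± 0.041 (adjusted p = 0.35), whereas the RNA value was 0.0016 ± 0.072. Leaving out each replicate in turn kept both RPF values on their side of 0, between -0.12 and -0.074 for Lars and between 0.078 and 0.14 for Mars.

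Among mitochondrial members, Hars2 and Cars2 had the smallest p in RNA. Hars2, for histidine, had 20.9, 15.5, 20.5 and 22.0 CPM in basal slices and 18.1, 19.2, 12.1, 17.0 and 18.3 CPM under DHPG. Replicate 2 was higher and the other 3 pairs lower, and the log2 fold change was -0.27 ± 0.13 (adjusted p = 0.616). It was -0.13 without replicate 3 and -0.42 without replicate 2. Hars2 shares 195 exonic bases with Hars on the opposite strand. Cars2, for cysteine, had 26.0, 24.5, 35.0 and 28.2 CPM in basal RNA and between 23.2 and 27.4 CPM under DHPG. Its log2 fold change of -0.16 ± 0.11 (adjusted p = 0.745) rested on replicate 3, without which it was -0.0085. In RPF the smallest p values of this class belonged to Aars2 and Nars2. Aars2 had 16.5, 12.9, 12.3, 15.1 and 13.8 CPM in basal slices and 13.2, 12.4, 14.7, 17.1 and 15.8 CPM under DHPG (log2 fold change 0.096 ± 0.078, adjusted p = 0.705). Nars2 had 11.8, 13.6, 13.3, 15.3 and 12.1 CPM and then 9.62, 11.5, 12.6, 15.5 and 12.6 CPM (log2 fold change -0.092 ± 0.078, adjusted p = 0.728). For both, the pairs ran in either direction, and 1 replicate moved the value by over 1.5 times, to 0.035 for Aars2 without replicate 3 and to -0.044 for Nars2 without replicate 2.

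**Figure D5:**
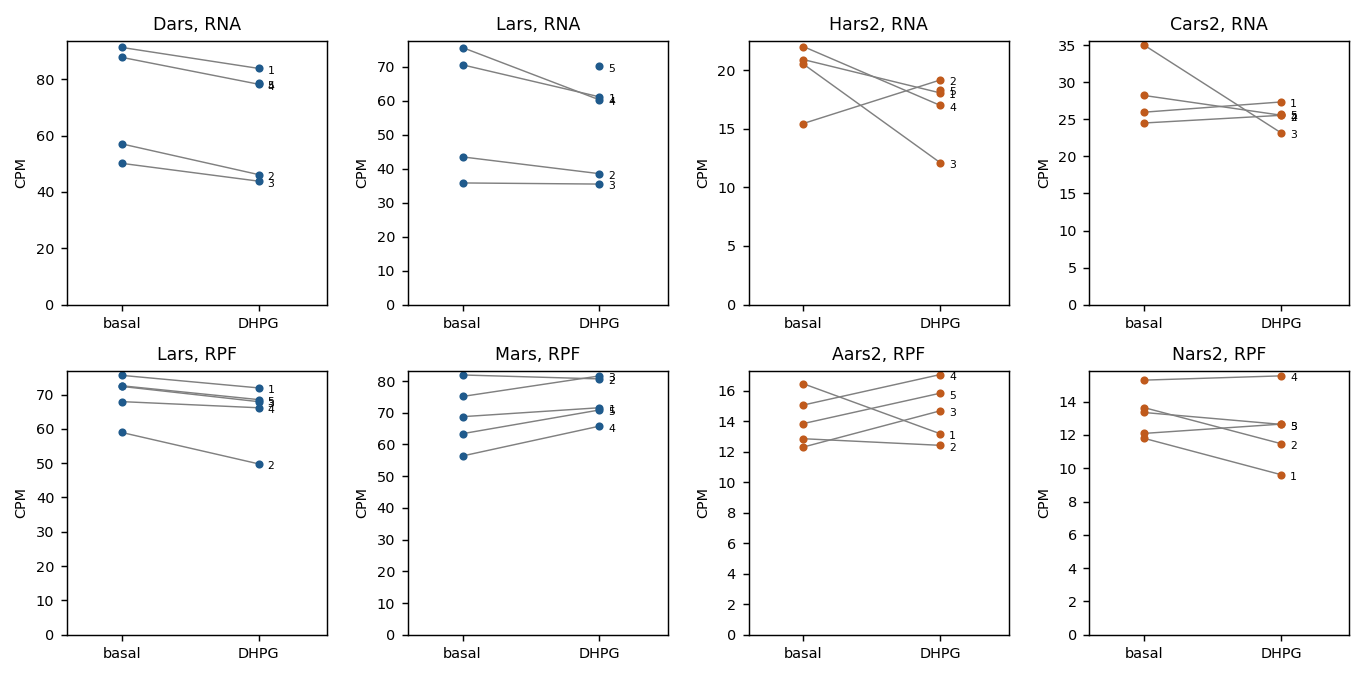
CPM of the members with the smallest p in each class, in RNA (upper row) and RPF (lower row), with a line from the basal to the DHPG library of each replicate number; DHPG RNA replicate 5 has no basal partner. The lines of Dars and of Lars all run downward, and in RNA both genes sit lower in replicates 2 and 3 than in the other replicates under either treatment.

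Wars, the tryptophan enzyme, was the 1 member of 36 whose RNA groups did not overlap, beside 0.51% of all genes. Its basal libraries had 86.9, 81.6, 93.7 and 79.3 CPM and its DHPG libraries 79.2, 73.6, 74.7, 77.8 and 76.5 CPM, the nearest values being 79.3 and 79.2. The log2 fold change was -0.16 ± 0.076 (adjusted p = 0.618), and -0.10 without replicate 3. In RPF, the groups overlapped for all 36 members, beside 0.394% of genes whose groups did not. Over members, the typical SD of basal libraries on the log2 scale was 0.21 in RNA for either class, and 0.091 (cytosolic) and 0.15 (mitochondrial) in RPF. Absolute log2 fold changes had medians of 0.076 (cytosolic) and 0.081 (mitochondrial) in RNA, and of 0.038 and 0.057 in RPF. Over all genes tested, the SD was 0.26 in RNA and 0.15 in RPF and the median absolute fold change 0.085 and 0.053. The SD includes shifts between replicate numbers that the block removes from the fold changes.

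Markers of other regions and cells were read in the same libraries. The summed level of 6 thalamus markers was 73.5 to 98.3 CPM in basal RNA and 88.3 to 123 CPM in DHPG RNA, and 106 to 134 and 113 to 178 CPM in RPF, with Shox2 at 0.58 CPM in basal RPF. The 6 astrocyte markers summed to 3884 to 4464 and 4142 to 4592 CPM in RNA, the 6 interneuron markers to 633 to 687 and 581 to 687 CPM, the 8 microglia markers to 445 to 702 and 448 to 689 CPM, and the 5 endothelial markers to 38.7 to 59.3 and 38.7 to 51.3 CPM. In RPF, the oligodendrocyte sum was 3988 to 8389 CPM in basal and 4599 to 9449 CPM in DHPG libraries. Their part in the small values of the members was not tested.

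Genes that work beside the synthetases were read from the same fits. Of 14 partners and tRNA editing factors, among them the complex scaffolds Aimp1, Aimp2 and Eef1e1, 0 passed the DHPG test in RNA, RPF or TE, with a median log2 fold change of -0.073 (RNA) and -0.012 (RPF). Prorsd1, a homologue of a prolyl-tRNA editing domain, had the smallest p in RNA, with 3.79 ± 0.51 CPM in basal and 2.42 ± 0.37 CPM in DHPG libraries (log2 fold change -0.70 ± 0.24, adjusted p = 0.539). Qrsl1, a subunit of the mitochondrial amidotransferase that makes glutaminyl-tRNA, had -0.28 ± 0.12 (adjusted p = 0.578). In RPF the smallest p values were those of Qrsl1 (-0.10 ± 0.070) and Dtd1, a D-aminoacyl-tRNA deacylase (0.061 ± 0.045). The basal TE of this group was mixed, from -1.48 for Pstk to 2.49 for Gatc, which had 9.31 CPM in basal RNA and 21.4 CPM in basal RPF. Basal TE of this list and of those that follow rests on the longest coding transcript. Their values with other lengths are not given here.

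Of the 9 elongation factors, 0 passed in RNA, RPF or the TE change under DHPG. In RNA the smallest p values belonged to Eef1g (-0.087 ± 0.069) and the mitochondrial Gfm1 (-0.087 ± 0.085), and in RPF to the mitochondrial Tsfm (-0.12 ± 0.062, adjusted p = 0.462) and Eef1a1 (-0.042 ± 0.030). Eef1a1, which delivers charged tRNA to the ribosome, had 5360 ± 615 CPM in basal RNA and a basal TE of -2.25 ± 0.15, whereas its neuronal paralogue Eef1a2 had a TE of 0.49 ± 0.16. Reads of these paralogues may have been split by the counting.

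The amino acid response was read from 20 genes, of which 19 were tested, Trib3 being too low. Here too 0 passed in RNA, RPF or the TE change. Asns, the asparagine synthetase and a classic ATF4 target, had 164 ± 9.89 CPM in basal RNA and 142 ± 7.44 CPM under DHPG, lower in 4 of 4 pairs (log2 fold change -0.23 ± 0.071, adjusted p = 0.536). Psat1, of serine synthesis, had -0.12 ± 0.071 (adjusted p = 0.694). In RPF, Slc3a2, the heavy chain of amino acid transporters, had 293 ± 28.5 and 316 ± 30.03 CPM (log2 fold change 0.10 ± 0.032, adjusted p = 0.164). Cebpg, a partner of ATF4, had 10.9 ± 0.55 and 12.8 ± 1.24 CPM, higher in 5 of 5 pairs (0.26 ± 0.081, adjusted p = 0.194). Atf4 itself had an RPF log2 fold change of -0.014 ± 0.062 and a basal TE of -2.78 ± 0.31, the lowest of this list.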

How the data were processed

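The authors deposited expected counts per gene, 1 table for RNA and 1 for RPF, rounded to whole numbers. Per the labels and the study's methods, adapters were removed (cutadapt), rRNA and tRNA reads discarded (Bowtie2), the rest mapped to mm10 (TopHat2), duplicates removed by molecular identifier and counts made with RSEM, on whole transcripts for RNA and on coding sequences less 30 bases at each end for RPF. The study tested with DESeq2 after batch correction. The 12 columns that match no sample here were not used. Replicates were pools of animals that the study calls biological replicates.

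Members and lists were chosen with earlier results of these data known. The main test was edgeR 4.0.16 (R 4.3.3), quasi-likelihood, TMM scaling, filterByExpr, Benjamini-Hochberg adjustment over all genes tested, and the replicate number as a block. Same-numbered basal and DHPG libraries had correlated deviations (0.27 to 0.72 in RNA and 0.26 to 0.52 in RPF), and the study's batches carry these numbers. For RNA replicate 2 the value of 0.27 was below its highest correlation with another number, 0.44. For the other RNA replicates and all RPF replicates the same number correlated best. DHPG RNA replicate 5, with no basal partner, adds nothing to the blocked contrast. The threshold was an adjusted p of 0.01 for RNA and 0.05 for RPF, TE and basal TE. Log2 levels used a prior count of 2. Gene positions and lengths came from GENCODE vM21 (GRCm38, the assembly of mm10), matched by symbol for 99.5% of genes and all 36 members, and promoters from RefSeq. Some promoter sequence is not reported here. Alternatives used limma 3.58.1, DESeq2 1.42.0 and sva 3.50.0. Scripts were tested on simulated data. Named genes were, per class and assay, the 2 members with the smallest p, the highest and lowest basal level and TE, Farsa and Farsb, same-amino-acid pairs and, of other lists, the 2 smallest p per assay. Wars was added after its values were seen, as were the other members called in basal TE. The total per library limits the precision of low counts, and the spread between pools adds to counting error.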

Additional observations from a re-analysis of the deposited data

Results flagged for a closer look

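Each member was screened for a library far from the others of its group, in 144 groups of 4 or 5 libraries, of which chance flags about 1 in 20, or 7.2. There were 9. In RNA, Farsa had 46.7 CPM in DHPG replicate 5, where the others had 40.4 to 41.8, and Farsb had 71.0 CPM in DHPG replicate 3, below the 87.6 to 92.3 of the others. In basal RPF replicate 1, Kars had 89.7 CPM against 69.8 to 74.7 and Qars 50.6 against 42.3 to 44.4. Vars2 had 6.46 CPM in basal RPF replicate 2 against 8.85 to 9.63. In DHPG RPF replicate 2, Lars had 49.8 CPM against 66.1 to 71.9, Tars 47.3 against 52.6 to 54.5 and Yars 116 against 128 to 134. Wars2 had 8.55 CPM in DHPG RPF replicate 1 against 5.52 to 6.28. Replicate 2 held 4 of the 9, replicate 1 held 3, and replicate 4 none.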

How the results depend on the processing

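The counts of 0 members called in RNA, RPF and TE were also found under the other scaling, both filters, the other thresholds, limma for TE and each left-out replicate. Without the replicate block they were 0 as well, and no member then had an unadjusted p under 0.05. The lowest adjusted p of any member under any alternative was 0.0486 in RNA (Dars) and 0.0688 in RPF (Mars), both under ComBat and DESeq2, which gave an adjusted p to 22 and 16 of the 36 members. DESeq2 with the block gave no member an adjusted p in RPF. The cytosolic medians stayed below 0 under all these alternatives. Leaving out single replicates gave -0.082 to -0.049 for the cytosolic and -0.059 to -0.0087 for the mitochondrial RNA median, while the cytosolic RPF medians lay between -0.051 and -0.023, whereas the mitochondrial RPF median lay between -0.030 and 0.027. With no length offsets, 11 members were called above the typical gene in place of 6, and 14 below in place of 21. Under that setting 9 members changed sign in the fit, 5 of them called with length offsets: Farsb (0.17), Gars (0.25), Iars (0.025), Rars2 (0.26) and Mars2 (-0.80). The TE means of Farsb and Mars2 without length scaling were 0.18 and -0.79. Of the 21 called below, 12 were called below under both settings, beside 3548 of the 4711 genes called below with length offsets. Of all 12092 genes, 1955 changed sign, 942 of them called with length offsets. Without the replicate block, 7 members were called above and 21 below. The share of all genes called without the block is not given here, so these counts were not read as a result about the members. Among members with at least 5 CPM, the class difference in basal RPF was 2.16 in place of 2.36. Merged exon lengths and no length scaling for single members, class TE medians and same-amino-acid ratios were chosen after seeing the data. Outside the members, Slc3a2 in RPF passed the threshold without replicate 3 and under ComBat and DESeq2, and Asns in RNA under the latter. Depth limits the low members most, Wars2 and Pars2 above all.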
